A study of Mus musculus with 2 samples.

Results

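The miR-29 family was followed in exosomes, the small membrane vesicles that cells shed into their medium, from BMSCs, the mesenchymal stem cells of mouse bone marrow. Its members were taken by name from the miRNA spots of both arrays: mmu-miR-29a-3p, mmu-miR-29a-5p, mmu-miR-29b-3p, mmu-miR-29b-1-5p, mmu-miR-29c-3p and mmu-miR-29c-5p, written below without the mouse prefix, which are 6 of the 1881 mouse miRNAs on the array. One exosome preparation came from BMSCs grown in normoxia, and the other came from BMSCs grown at 0.2% oxygen. Both cultures were in MEM medium with fetal calf serum, penicillin G and streptomycin, and the medium of each was harvested after 72 h. The labels name no genetic change or further agent, age or number of animals. Per the methods, the cells were bought and came from C57BL/6 mice, and the serum had been depleted of its own exosomes. There was 1 array per condition, so no test was run, and every SD and standard error (SE) below is over replicate spots printed on 1 array and leaves out the spread between cultures.

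Each miR-29 hairpin is cut into a 5p and a 3p arm, and the 3p arm is the one usually loaded into Argonaute to repress mRNAs. Pairing of its seed, the bases next to its 5′ end, with mRNAs of collagens, elastin, fibrillin and other matrix proteins has made the family known as a brake on extracellular matrix production and on fibrosis. In BMSCs it is also known from bone formation. The 5p arms are usually degraded, and less is known of their targets.

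The mature sequences are shown because the family is defined by its seed and its members differ at few other bases. All 6 members matched an entry of the same name in RefSeq (GRCm38.p6), and the seed, bases 2 to 8 from the 5′ end, is in capitals. The 3p arms share 1 seed.
miR-29a-3p: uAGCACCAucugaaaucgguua
miR-29b-3p: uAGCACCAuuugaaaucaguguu
miR-29c-3p: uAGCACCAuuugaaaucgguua
miR-29b-1-5p: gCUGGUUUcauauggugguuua
miR-29a-5p: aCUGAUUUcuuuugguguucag
miR-29c-5p: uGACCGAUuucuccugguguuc

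The 3p seed, AGCACCA, was held by 3 of the 1608 array miRNAs with a RefSeq mature sequence, and these were the 3 family members. No other of these miRNAs held the seed of any of the 5p members. Counted from the 5′ end, the only substitution from miR-29a-3p to miR-29c-3p was C10U. The substitutions from miR-29a-3p to miR-29b-3p were C10U, G18A, U21G and A22U, and miR-29b-3p had 1 base more. miR-29b-3p differed from miR-29c-3p by G18A, U21G and A22U. The probes were not given as sequences in the files, and how far they tell these arms apart was not tested.

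The family comes from 4 hairpins in 2 pairs. On chromosome 6, on the minus strand, Mir29a (chr6:31062660-31062747) and Mir29b-1 (chr6:31063023-31063093) lie 275 bases apart. On chromosome 1, on the plus strand, Mir29b-2 (chr1:195037040-195037120) and Mir29c (chr1:195037547-195037634) lie 426 bases apart. These positions are those of RefSeq on GRCm38.p6, whereas the array design names mm9 and no position was converted. miR-29b-3p is the same in Mir29b-1 and Mir29b-2, so its signal cannot be assigned to either chromosome. Mir29b-1 is shown whole because it is the only hairpin of which both arms were detected. Its arms are in capitals, miR-29b-1-5p first and miR-29b-3p second.
Mir29b-1: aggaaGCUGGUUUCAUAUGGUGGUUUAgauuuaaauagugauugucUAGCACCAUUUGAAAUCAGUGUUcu

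The array signals had the following background. A probe counted as detected if over 50% of its spots stood well above background, and a miRNA with at least 1 such probe counted as detected. By this call 225 of the 1881 miRNAs (12.0%) were detected in normoxic and 199 (10.6%) in hypoxic exosomes, and 180 on both arrays. Of 7 miRNAs known from mesenchymal stromal cells 6 were detected on both arrays, miR-145a-5p being the one not detected. The log2 differences of these 6 ran from 0 to 1.20 after quantile normalization. The summed software signal of the 7, not scaled between arrays, went from 7054 to 6010. Of 7 blood cell miRNAs, 3 were detected in normoxia (miR-223-3p, miR-451a and miR-144-3p) and miR-451a alone in hypoxia, and their summed software signal went from 155 to 8.74. Of 2 endothelial miRNAs miR-126a-3p alone was detected, in normoxia only, as was the 1 hepatic miRNA looked up, miR-122-5p. Of 3 muscle miRNAs miR-206-3p alone was detected, on both arrays. None of 5 epithelial or 2 neural miRNAs was detected on either array. The part of such RNA in the miR-29 signals was not tested. The software put the normoxia array within its quality range and marked the hypoxia array for evaluation. The median coefficient of variation between spots was 9.68% and 15.8%.

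Probes of the 3 miR-29 guide arms and of 1 of the 3 passenger arms were detected in exosomes from both cultures. How much of a guide arm's signal came from the other guide arms was not tested. miR-29a-3p, miR-29b-3p, miR-29c-3p and miR-29b-1-5p were detected in normoxia and in hypoxia, and miR-29a-5p and miR-29c-5p in neither. The 4 of 6 members detected on each array stand beside 12.0% and 10.6% of all miRNAs. By arm, 3 of 3 members ending in 3p were detected on both arrays, against 7.52% of the 785 array miRNAs so named. For the 5p arms it was 1 of 3, against 11.6% of 775. miR-29b-2-5p, the 5p arm of the other miR-29b hairpin, was printed too but is no listed member, and it was detected on neither array.

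The guide arm of Mir29a, miR-29a-3p, was bright on both of its probes, and its difference was small. On probe A_54_P2489 the processed signal, the software's background-subtracted intensity in arbitrary units, was 8994 ± 467 (SD, n = 15 spots) in normoxia. In hypoxia it was 8176 ± 471 (SD, n = 12), 3 spots being left out for an outlier flag. The spots ran from 8110 to 9701 (median 9074) in normoxia and from 7465 to 9009 (median 8117) in hypoxia. The hypoxic spots sat lower, but the ranges overlapped. On probe A_54_P2488 the mean was 1114 ± 131 (SD, n = 15) in normoxia and 828 ± 165 (SD, n = 14) in hypoxia. Its spots ran from 841 to 1318 (median 1119) in normoxia and from 439 to 1035 (median 877) in hypoxia, again with overlap. Before any normalization between arrays, hypoxia thus held 90.9% of the normoxic signal on one probe and 74.4% on the other.

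After quantile normalization, which gives both arrays the same distribution of probe signals, the log2 difference (hypoxia minus normoxia) was 0.19 ± 0.031 (SE over spots) on A_54_P2489 and -0.035 ± 0.088 on A_54_P2488. The probes differed in sign, and their mean, 0.08 ± 0.047, was under 2 SE from 0.

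miR-29b-3p, the arm encoded at both loci, was lower on the hypoxia array. Its probe A_54_P1012 gave 481 ± 53.6 (SD, n = 15) in normoxia and 284 ± 76.6 (SD, n = 15) in hypoxia, 59.0% of the normoxic signal. The spots ran from 404 to 587 (median 478) in normoxia and from 114 to 366 (median 306) in hypoxia. Every hypoxic spot lay below every normoxic spot. The log2 difference was -0.76 before and -0.57 after quantile normalization, each ± 0.11 (SE). The other probe of this arm, A_54_P1011, was not detected, with 2 of 15 spots well above background in normoxia and 0 of 15 in hypoxia, so the value rests on 1 probe. With outlier spots kept on all probes it was -0.10 after quantile normalization, although no spot of A_54_P1012 carried a flag.

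miR-29c-3p, which differs from miR-29a-3p at a single base, had 2 detected probes that were both lower on the hypoxia array before normalization. Probe A_54_P2493 read 105 ± 9.80 (SD, n = 15) in normoxia and 69.9 ± 8.69 (SD, n = 14) in hypoxia, with spots from 82.3 to 120 (median 108) and from 58.1 to 85.6 (median 69.5). Probe A_54_P2492 read 83.6 ± 9.46 (SD, n = 15) and 54.8 ± 10.5 (SD, n = 14), with spots from 68.7 to 99.1 (median 83.6) and from 35.8 to 71.8 (median 56.3). The ranges overlapped on both probes. The hypoxic share of the normoxic signal was 66.6% and 65.6%. Quantile normalization took the difference to 0 on A_54_P2493 and to -0.074 ± 0.085 (SE) on A_54_P2492, and the miRNA's log2 difference from -0.60 to -0.037 ± 0.052.

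miR-29b-1-5p, the passenger arm of Mir29b-1, had the lowest log2 difference of the 4 measured members under each of the 6 scalings set side by side below, though not under every other setting. It was measured on 1 of its 4 probes, A_54_P3268. There the signal was 59.1 ± 9.83 (SD, n = 6) in normoxia and 21.8 ± 3.09 (SD, n = 7) in hypoxia, 36.9% of the normoxic signal. The spots ran from 47.1 to 70.2 (median 58.8) and from 16.7 to 25.2 (median 22.5), so the arrays did not overlap. The log2 difference was -1.44 before and -0.88 after quantile normalization, each ± 0.12 (SE). The probe was dim in hypoxia, where the lowest mean of any detected probe was 13.5, and none of the other 3 probes of this arm had a spot well above background on either array. With normexp background correction in place of the software's, the log2 difference was -0.37, above the -0.50 of miR-29b-3p. That setting adds an offset of 50 to every spot, which draws the difference of a dim probe toward 0. With no filter on dim probes the log2 difference was 0.10, but there the 3 undetected probes were set to each array's lowest detected signal. After quantile normalization that floor was 12.0 in normoxia and 16.1 in hypoxia, so each such probe counted as higher in hypoxia by construction.

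Spots of hypoxia wholly below those of normoxia were thus seen on 2 of the 6 detected member probes, and the same held for 114 of all 305 probes detected on both arrays (37.4%). A lower signal of a member can come from fewer vesicles in the preparation or from less of that miRNA per vesicle, and these cannot be told apart.

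**Figure D1:**
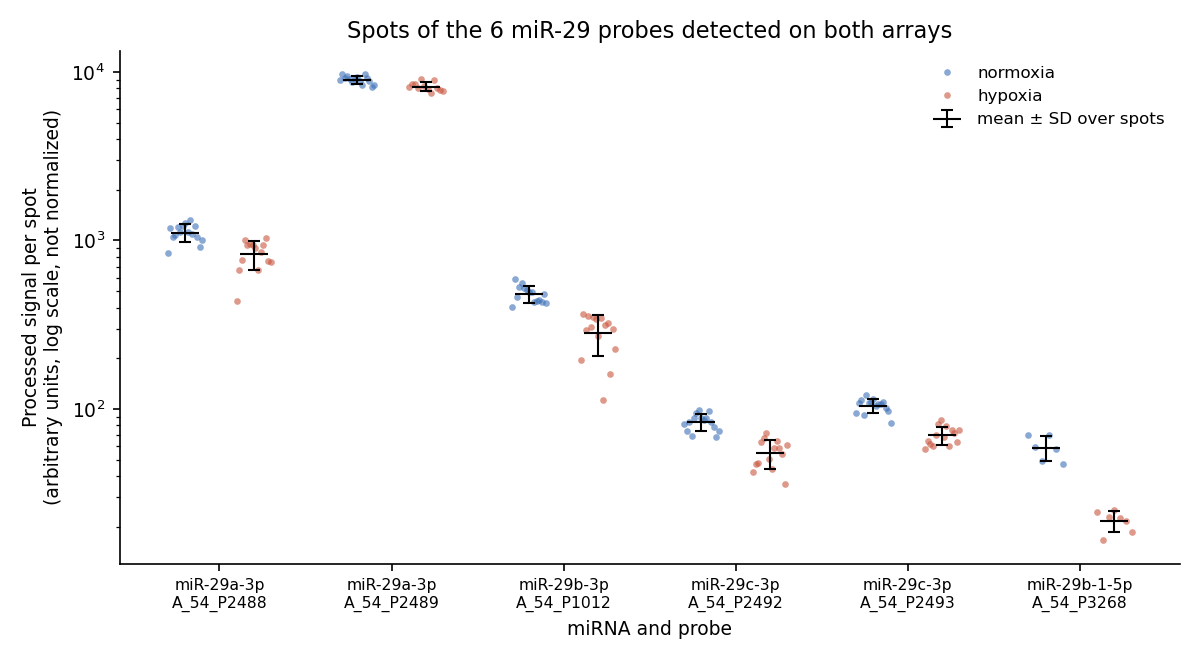
Processed signal of each spot (log axis, arbitrary units, not normalized between arrays) for the 6 member probes detected on both arrays, with the mean ± SD over spots in black, normoxia in blue and hypoxia in red. Hypoxic and normoxic spots do not overlap for A_54_P1012 of miR-29b-3p and A_54_P3268 of miR-29b-1-5p and overlap for the other 4 probes; the heights of different probes are not comparable.

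The passenger arms of Mir29a and Mir29c gave no signal above the background level. The 4 probes of miR-29a-5p had means from -2.47 to 4.35 in normoxia and from 0.939 to 4.23 in hypoxia. The 2 probes of miR-29c-5p had means of 1.49 and 3.84 in normoxia and of 0.407 and 1.46 in hypoxia. None of the spots of these probes was well above background on either array. The negative control spots averaged 4.28 ± 3.10 (SD, n = 964) in normoxia and 4.28 ± 3.52 (SD, n = 979) in hypoxia, and the means of both arms lay at or below about that level. The lowest mean of a detected probe was 14.5 in normoxia and 13.5 in hypoxia. No fold change is given for these arms. The plot of the undetected probes also holds A_54_P1011 of miR-29b-3p, which averaged 10.7 ± 3.56 (SD, n = 15) in normoxia and 8.12 ± 3.08 (SD, n = 15) in hypoxia, above the mean of the negative controls.

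**Figure D2:**
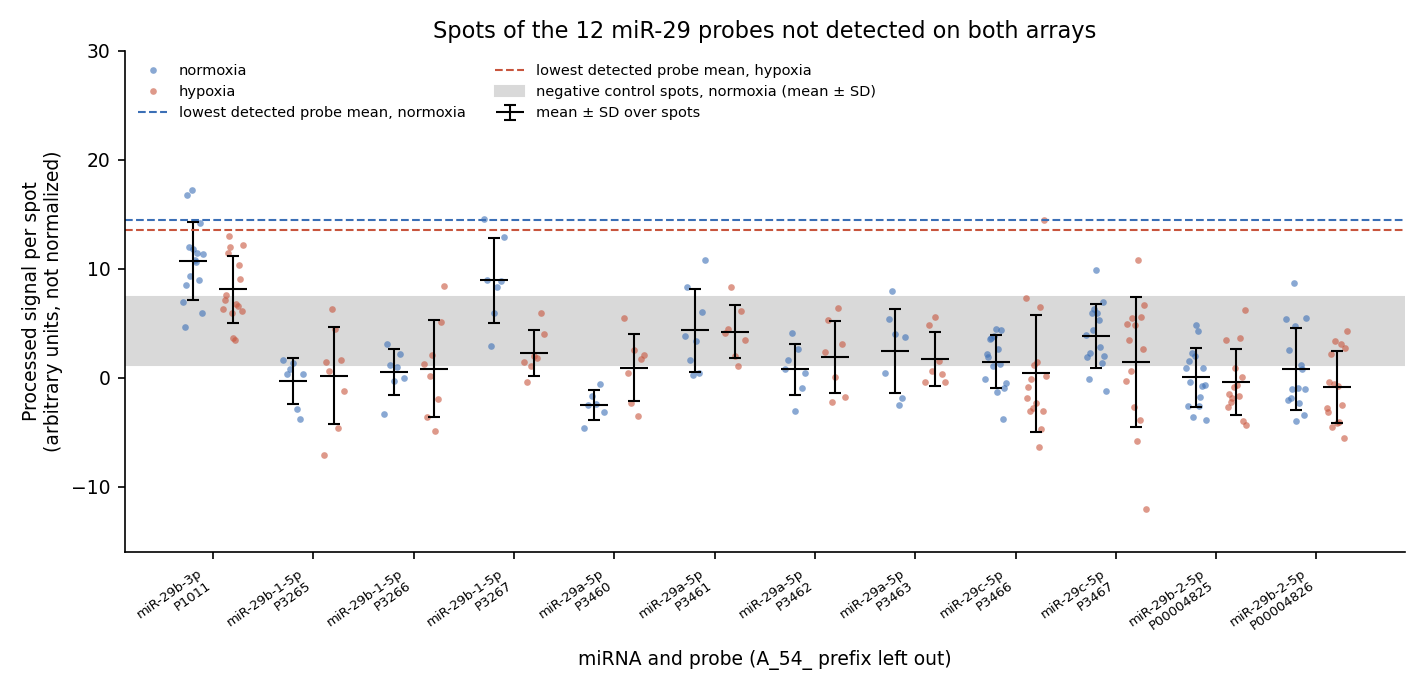
Processed signal of each spot (linear axis, arbitrary units, not normalized) for the 12 probes of miR-29b-3p, miR-29b-1-5p, miR-29a-5p, miR-29c-5p and miR-29b-2-5p that were not detected on both arrays, with the mean ± SD over spots in black. All probe means lie under the dashed lines at 14.5 (normoxia) and 13.5 (hypoxia), the lowest mean of a detected probe, and most lie in or below the grey band of the normoxic negative controls (4.28 ± 3.10).

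Read against all miRNAs after quantile normalization, miR-29b-1-5p and miR-29b-3p lay in the lower part of the order. miR-29c-3p and miR-29a-3p lay near its middle. After quantile normalization, 33 of the 180 miRNAs detected on both arrays (18.3%) were at least 2-fold higher in hypoxia and 18 (10.0%) at least 2-fold lower. None of the 4 measured members was in either set. The balance turned with the scaling, from 20 higher (11.1%) and 36 lower (20.0%) with no normalization to 58 higher (32.2%) and 10 lower (5.56%) with the 75th percentile of all probes, which lies among undetected probes. No member was among the higher ones under either, and miR-29b-1-5p was among the lower ones with no normalization (-1.44). A log2 difference below 0 was found for 3 of the 4 members, miR-29b-3p, miR-29c-3p and miR-29b-1-5p, and for 77 of 180 miRNAs (42.8%). The median over the members was -0.30, and that over all 180 miRNAs was 0.17. Of the 180, 21 had a lower log2 difference than miR-29b-1-5p, 35 than miR-29b-3p, 73 than miR-29c-3p and 80 than miR-29a-3p.

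**Figure D3:**
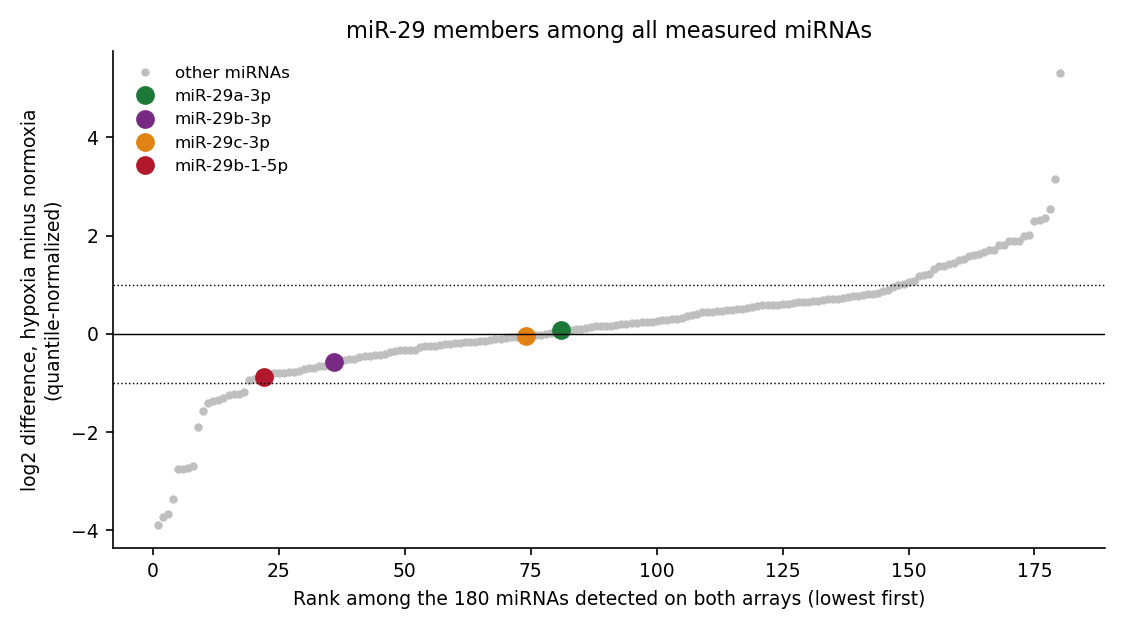
Log2 difference (hypoxia minus normoxia, quantile-normalized) of the 180 miRNAs detected on both arrays, in order from the lowest, with the 4 measured miR-29 members in colour and dotted lines at a 2-fold difference. miR-29b-1-5p (-0.88) and miR-29b-3p (-0.57) lie in the lower part of the order, miR-29c-3p (-0.037) and miR-29a-3p (0.08) lie near the middle, and all 4 lie between the dotted lines.

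The size and, for 3 of the 4, the sign of a member's difference depended on how the arrays were scaled to each other. The 6 scalings were set side by side: quantile normalization, no normalization, the 75th percentile of all probes, the same percentile of only those probes that both arrays detected, the hybridization spike-ins and the labelling spike-ins. Over them miR-29a-3p ran from -0.28 to 0.64 (below 0 in 2 of 6), miR-29b-3p from -0.76 to 0.17 (below 0 in 5 of 6) and miR-29c-3p from -0.60 to 0.33 (below 0 in 5 of 6). The 0.17 and the 0.33, the only values above 0 of these last arms, came with the 75th percentile of all probes. Of the miRNA spots 9.96% in normoxia and 8.59% in hypoxia stood well above background. That percentile therefore lies among undetected probes, and its factor is set by signal near background. miR-29b-1-5p ran from -1.44 to -0.51 and was below 0 in 6 of 6. It was at least 2-fold lower in 3 of 6: with no normalization (-1.44), where 20.0% of the 180 miRNAs were, with the hybridization spike-ins (-1.31), where 16.7% were, and with the 75th percentile of the probes both arrays detected (-1.12), where 13.9% were. With no normalization all 4 members were below 0, and so were 117 of the 180 miRNAs (65.0%).

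The scaling also moved the median of all 180 miRNAs, from -0.27 with no normalization to 0.66 with the 75th percentile of all probes. The 5 scalings other than quantile normalization move every miRNA of an array by the same factor, so by construction they give 1 and the same distance of a member from the median. On the log2 scale miR-29a-3p minus the median was -0.013 with these and -0.091 after quantile normalization. The same subtraction gave -0.33 and -0.20 for miR-29c-3p, -0.49 and -0.73 for miR-29b-3p, and -1.17 and -1.05 for miR-29b-1-5p.

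**Figure D4:**
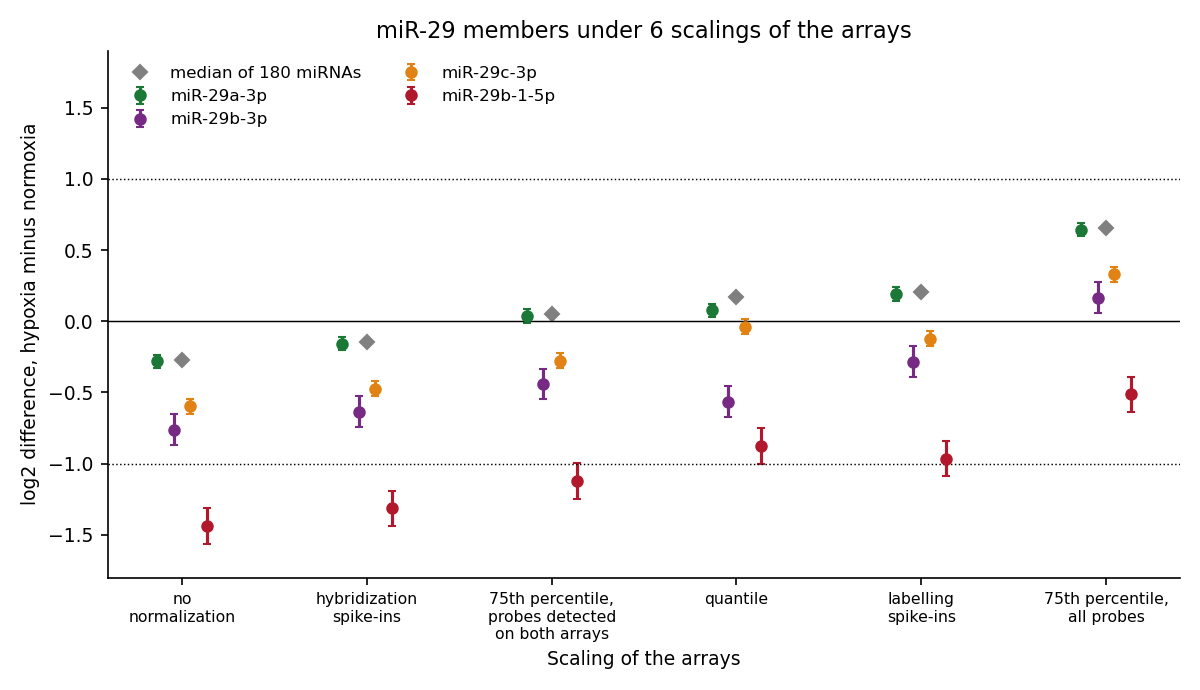
Log2 difference (hypoxia minus normoxia, ± SE over spots) of the 4 measured members under 6 scalings of the arrays, with the median of all 180 miRNAs as grey diamonds and dotted lines at a 2-fold difference. The median moves from -0.27 to 0.66 and miR-29b-1-5p from -1.44 to -0.51; outside the quantile column the distances between points are fixed, since each of those scalings shifts all miRNAs alike.

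A factor common to a whole array cancels when 1 member's log2 difference is subtracted from another's. On this 1 array per condition, the guide arms of the same seed gave unequal log2 differences. The log2 difference of miR-29b-3p minus that of miR-29a-3p was -0.48 ± 0.12 (SE) with no normalization and -0.64 ± 0.12 after quantile normalization. These values are over 4 SE of the spots. That SE leaves out the spread between probes of an arm. With no normalization the probes of miR-29a-3p were themselves at -0.43 and -0.14, and miR-29b-3p rests on 1 probe. For miR-29c-3p minus miR-29a-3p it was -0.31 ± 0.070 with no normalization, over 4 SE, and -0.11 ± 0.070 after quantile normalization, under 2 SE. For miR-29b-3p minus miR-29c-3p it was -0.16 ± 0.12 with no normalization, under 2 SE, and -0.53 ± 0.12 after quantile normalization, over 4 SE. The size of the gap between miR-29b-3p and miR-29c-3p therefore depended on the normalization, which does not act as 1 factor per array, while miR-29b-3p was the lower one in both.

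Both arms of Mir29b-1 were lower in hypoxia on their detected probes, although miR-29b-3p can also come from Mir29b-2. The passenger arm minus the guide arm was -0.68 ± 0.17 (SE) with no normalization and -0.31 ± 0.17 after quantile normalization. The pair on chromosome 6 thus held members at 0.08 (miR-29a-3p) and -0.88 (miR-29b-1-5p) after quantile normalization. The value of miR-29b-1-5p rests on 1 dim probe and was -0.37 with normexp and 0.10 with no filter on dim probes. In these 2 settings the passenger arm minus the guide arm was above 0, at 0.13 and 0.17. The normexp offset of 50 draws the dimmer arm more toward 0, and the unequal floors add a positive difference. Neither value therefore tests the sign.

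The odd and the even spots of each probe gave like differences without normalization. Such spots share 1 hybridization per condition, and the software's sums come from the same arrays, so neither repeats the experiment. Without normalization miR-29a-3p gave -0.29 and -0.29, miR-29b-3p -0.77 and -0.75, miR-29c-3p -0.58 and -0.62, and miR-29b-1-5p -1.41 and -1.48. The software's own sum of signal per miRNA, which it computes over its probes without scaling between arrays, went from 2143 to 1909 for miR-29a-3p. It went from 104 to 60.2 for miR-29b-3p, from 40.0 to 26.4 for miR-29c-3p and from 5.72 to 2.16 for miR-29b-1-5p. These are log2 differences of -0.17, -0.79, -0.60 and -1.41, in the order that the probe means gave without normalization. The software called the same 4 members detected on both arrays.

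Short motifs known from work on the location of small RNAs were looked up in the mature sequences, along the RNA strand only. AGUGUU, known as a nuclear import element of miR-29b, was in 12 of the 1608 sequences (0.746%). Among the members it was found in miR-29b-3p alone, at position 18, and it spans the substitutions G18A, U21G and A22U but not C10U. Of the 216 detected miRNAs with a sequence, 2 held it (0.926%). GGAG, known from work on the sorting of miRNAs into exosomes, was in 231 sequences (14.4%), in 53 of the 216 detected (24.5%) and in none of the 6 members. A match is a run of letters only.

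The miRNAs with the log2 difference nearest to that of each member, over the 2 arrays and after quantile normalization, were miR-221-3p (0.077) and miR-15b-5p (0.084) for miR-29a-3p. For miR-29b-3p they were miR-3473f (-0.59) and miR-20a-5p (-0.54). For miR-29c-3p they were miR-6948-3p (-0.039) and miR-130b-3p (-0.022), and for miR-29b-1-5p they were miR-1895 (-0.90) and miR-30a-5p (-0.83). With 1 value per condition, likeness here means only a similar difference.

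The members were set beside 18 other miRNAs known from work on fibrosis and extracellular matrix. This list was chosen with earlier results of these data known, so its median is no independent contrast. Of the 18, 12 were measured on both arrays, 1 was detected in hypoxia only and 5 on neither. The median of the 12 was 0.56, above the median of all 180 (0.17) and of the miR-29 members (-0.30). With no normalization it was -0.028, with 0 of the 12 at least 2-fold higher and 2 lower, and it was 0.90 with the 75th percentile of all probes, with 5 higher and 0 lower. After quantile normalization, 2 of the 12 were at least 2-fold higher in hypoxia beside 18.3% of all miRNAs, 1 was at least 2-fold lower beside 10.0%, 8 were above 0, 3 were below 0 and 1 was at 0. The 2 higher ones were miR-101a-3p (1.42 ± 0.063, SE over spots) and miR-214-3p (1.20 ± 0.091), which is made from the same host transcript as miR-199a-5p (0.17 ± 0.095). The lower one was miR-18a-5p (-1.23 ± 0.050), and miR-19b-3p was at -0.77 ± 0.048; both come from miR-17-92 type clusters and are known to repress matricellular proteins.

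The others of the list that were measured on both arrays were less than 2-fold apart after quantile normalization. miR-21a-5p, the best known miRNA of fibrosis, was at 0, the value that quantile normalization gives to probes of equal rank on both arrays, and at -0.37 with no normalization. miR-24-3p was at -0.24. miR-192-5p was at 0.80, miR-26a-5p at 0.61, miR-27b-3p at 0.60, miR-143-3p at 0.59 and miR-196a-5p, which like miR-29 is known to repress collagen mRNAs, at 0.53. miR-34a-5p, a target of p53, was detected in hypoxia only. Its brightest probe read 11.9 ± 3.24 (SD, n = 15) in normoxia and 19.1 ± 5.27 (SD, n = 14) in hypoxia, which against the lowest detected normoxic signal is at least 2.18-fold higher after quantile normalization and at least 1.32-fold higher with no normalization. miR-30c-5p, miR-133a-3p, miR-200b-3p, miR-155-5p and miR-145a-5p were detected on neither array.

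**Figure D5:**
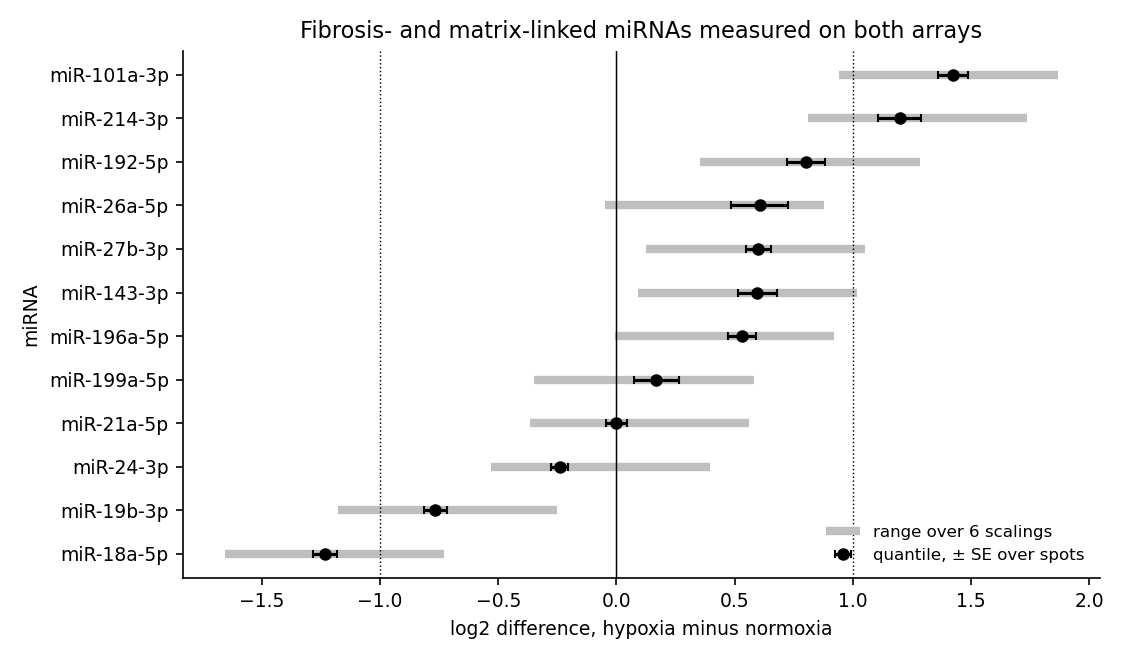
Log2 difference (hypoxia minus normoxia) of the 12 fibrosis- and matrix-linked miRNAs measured on both arrays, as points with the SE over spots after quantile normalization and as grey bars for the range over 6 scalings, with dotted lines at a 2-fold difference. miR-101a-3p (1.42) and miR-214-3p (1.20) lie above 0 and miR-18a-5p (-1.23) and miR-19b-3p (-0.77) below 0 over their whole bars, while the bar of miR-21a-5p crosses 0.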

How the data were processed

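Cy3-labelled exosomal RNA was put on 1 one-colour Agilent mouse miRNA array per condition. The study's methods name Agilent's miRNA labelling kit, whereas the labels describe reverse transcription with a DNA primer. Per the file headers the authors read the scans with Feature Extraction 11.5.1.1, and the processed signal they deposited is an intensity on a linear scale, background-subtracted and not normalized between arrays. The deposited spot flags (0 or 1) marked outliers and spots well above background. The deposited series value table equalled the processed signal (largest difference 0).

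Any spot carrying 1 or more of 4 outlier flags was dropped (2.96% of miRNA spots in normoxia, 3.45% in hypoxia, none saturated), the spots of each of 4415 probes were averaged, and probe means were quantile-normalized, which the study names. A miRNA's log2 difference averages the probes that both arrays detected. A miRNA detected on 1 array was set against the higher of the dim array's lowest detected signal and the dim probe's own. The 2-fold threshold is the study's. The SE was taken from the spots before normalization.

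The miRNAs named were all miR-29 entries, a list linked to fibrosis and matrix, miRNAs sharing a member's seed, the 2 nearest to each member, and cell type markers by count. The members and lists were chosen with earlier results of these data known. Alternatives were other scalings, spot medians, all spots, odd or even spots, the brightest probe, a strict and no filter, the software's sums, the value table, and normexp (offset 50, limma 3.58.1, R 4.3.3) on the median pixel signal. Scripts (Python 3.11.15, pandas 2.3.3) were tested on simulated data. The arrays' number limits the precision.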

Additional observations from a re-analysis of the deposited data

How the results depend on the processing

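No paired analysis was possible because there was 1 array per condition, and for the same reason no replicate was left out. Over 14 alternatives, 107 recomputed log2 values moved by less than a spread taken from the SD over spots and 33 by more. The 107 count each difference between members under all 5 scalings by 1 factor, which give the same value. The strict filter left all members at their main value, since every used spot of their detected probes was well above background. The brightest probe left miR-29b-3p and miR-29b-1-5p, with 1 detected probe each, at theirs. The 107 also hold all 14 values of miR-29b-1-5p minus miR-29b-3p, whose sign changed with normexp and with no filter on dim probes. Of the recomputed counts 45 stayed within 1.5 times and 15 did not. The series value table is the same signal and says nothing of stability. With no normalization the log2 difference of miR-29a-3p was -0.28, of miR-29c-3p -0.60 and of miR-29b-1-5p -1.44, the members' median was -0.68 and 1 member was at least 2-fold apart; the matrix list had 0 higher, 2 lower and a median of -0.028. With the 75th percentile of all probes, which lies among undetected probes, the values were 0.64 for miR-29a-3p, 0.17 for miR-29b-3p, 0.33 for miR-29c-3p and -0.51 for miR-29b-1-5p. The members' median was then 0.25, and the list had 5 higher, 0 lower and a median of 0.90. With the 75th percentile of the probes both arrays detected miR-29c-3p was at -0.28, 1 member was 2-fold apart and the list's median was 0.29. With the hybridization spike-ins miR-29a-3p was at -0.16, miR-29c-3p at -0.47 and miR-29b-1-5p at -1.31, 1 member was 2-fold apart, and the list had 1 higher, 2 lower and a median of 0.097.

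Keeping all spots put miR-29a-3p at 0.34, miR-29b-3p at -0.10, the members' median at -0.025 and the list's lower count at 2. None of the spots of the detected miR-29b-3p probe carried an outlier flag, so that move came through the other probes that set the quantiles. With no filter on dim probes, undetected probes stood at each array's floor, and miR-29b-1-5p was at 0.10, miR-29b-3p at -0.069, miR-29b-3p minus miR-29a-3p at -0.14, miR-29b-3p minus miR-29c-3p at -0.032 and the members' median at 0.020. With normexp miR-29b-1-5p was at -0.37, and the list had 0 higher, 0 lower and a median of 0.18. Its offset of 50, added to every spot, draws the log2 differences of dim probes toward 0. With the software's sums miR-29a-3p was at -0.17, miR-29c-3p at -0.60, miR-29b-1-5p at -1.41, miR-29c-3p minus miR-29a-3p at -0.43 and the members' median at -0.69, 1 member was 2-fold apart, and the list had 0 higher, 2 lower and a median of -0.028.

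Between members, the 5 scalings by 1 factor give the same difference by construction and are no separate evidence. Over the alternatives miR-29b-3p minus miR-29a-3p ran from -0.75 to -0.14, miR-29b-3p minus miR-29c-3p from -0.57 to -0.032 and miR-29c-3p minus miR-29a-3p from -0.43 to -0.051. miR-29b-1-5p minus miR-29b-3p ran from -0.72 to 0.17 and was above 0 with normexp (0.13) and with no filter on dim probes (0.17). These values carry the offset and the unequal floors given above. The same number of members, 4, was detected on each array in the 9 alternatives run on it. The brightest probe, no filter and normexp keep the same detection flags, so under them the count could not move. Signal over background limits miR-29b-1-5p, whose probe read 21.8 in hypoxia beside a lowest detected mean of 13.5.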
